A study of Mus musculus with 4 samples.

Results

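A group of 7 genes that mark ST2+ regulatory T (Treg) cells or carry out tissue repair and lipid handling in tissue Treg cells were followed in Treg cells of the mouse large intestine (LI): *Il1rl1*, *Gata3*, *Areg*, *Penk*, *Pparg*, *Kit* and *Dgat2*. These 7 of the 53379 genes in the deposited table were chosen by name with their KO against control values in view, so those values are given as a description and carry no test. Each symbol had 1 row. All 7 passed the filter used for testing (protein-coding, mean FPKM above 5 in either group), as did 7639 genes in all, but *Pparg* passed only through its control mean.

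RNA-seq libraries came from CD3+CD4+YFP+ cells of unchallenged adult C57BL/6 mice. The control group was Foxp3Cre-YFP Setd2 f/+ and the KO group Foxp3Cre-YFP Setd2 f/f, with 2 libraries each. Both groups thus carried the Cre-YFP driven by *Foxp3*, and the controls also had 1 floxed copy of *Setd2*, the gene of a histone H3K36 methyltransferase. Several mice were pooled for each library, so the SD below describes pools, not single mice. The p-values set a difference between groups against the variation between pools, with a variance moderated over all genes tested.

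ST2, the product of *Il1rl1*, is the receptor for IL-33, an alarmin released by damaged barrier and stromal cells. GATA3 is a zinc-finger transcription factor that binds GATA motifs and is known to promote *Il1rl1* in type 2 lymphocytes, where ST2 signalling in turn sustains GATA3. Treg cells with this pair are abundant in the colon and in adipose tissue and are known for making repair factors such as amphiregulin.

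The level of a gene was its deposited FPKM, by name the fragment number scaled to transcript length and to library size. The values also follow a common distribution over the libraries, a step that the methods do not name. Levels of different genes are therefore compared only roughly. The libraries shared many of their ranked values, with 2172 of the top 5000 ranks identical in all of them. A gene at the same such rank in both pools of a group gets the same value, so its SD can understate how pools vary. Depth is unknown, and a change of total mRNA per cell could not be seen. Genes at 0 numbered 33957 and 28426 in control 1 and 2, and 33490 and 33223 in KO 1 and 2. Control 2 thus had values above 0 for the most genes, and the cause was not tested. Targeted *Setd2* was at 38.19 and 27.36 in control 1 and 2 and at 26.33 and 36.30 in KO 1 and 2 (log2 fold change -0.06, SE 0.21, adjusted p = 0.927 from limma). A value for the whole gene cannot check a deletion of some exons, so the groups stand as labelled. Among 6 Treg markers, *Ctla4* (1593.26 to 2310.35) and *Tnfrsf18* (1899.20 to 2217.76) were high in all libraries. *Ctla4* was higher in both KO pools (1593.26 and 1700.67 against 2159.97 and 2310.35) and *Il2ra* lower (183.66 and 180.37 against 152.14 and 162.77). *Tnfrsf18*, *Cd4* and *Cd3e* overlapped between the groups. *Foxp3* itself, in contrast, was listed at 2.62 and 5.61 in control and 4.66 and 3.05 in KO. The male-specific gene *Ddx3y* was at 77.30 and 58.05 in control and 87.95 and 102.23 in KO and *Kdm5d* was also higher in both KO pools, but *Eif2s3y* (log2 fold change 0.12) and *Uty* (0.01), on the same chromosome, overlapped between the groups, and *Xist*, made from the inactive X chromosome, was at 7.22 and 7.02 against 5.08 and 6.41. The part of sex in the results was not tested.

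RefSeq starts on GRCm38.p6 were found for 5 of the 7 genes, namely *Il1rl1*, *Gata3*, *Areg*, *Pparg* and *Kit*. The 250 bases before the starts of the receptor, its transcription factor and the secreted ligand are shown, because GATA3 and ST2 are tied to each other and because *Areg* is a textbook cAMP-responsive gene. Capitals mark a GATA motif (AGATAA and AGATAG, and likewise TGATAA and TGATAG, on either strand) or the palindromic cAMP response element (CRE, TGACGTCA), and these motifs do not overlap each other here.
Il1rl1 distal start, chr1:40429320-40429569 (+): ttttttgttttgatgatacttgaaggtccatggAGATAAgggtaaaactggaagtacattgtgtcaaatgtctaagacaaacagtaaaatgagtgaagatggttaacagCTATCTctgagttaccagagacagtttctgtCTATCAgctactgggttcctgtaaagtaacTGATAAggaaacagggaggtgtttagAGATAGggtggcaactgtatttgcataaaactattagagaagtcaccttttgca
Il1rl1 proximal start, chr1:40439379-40439628 (+): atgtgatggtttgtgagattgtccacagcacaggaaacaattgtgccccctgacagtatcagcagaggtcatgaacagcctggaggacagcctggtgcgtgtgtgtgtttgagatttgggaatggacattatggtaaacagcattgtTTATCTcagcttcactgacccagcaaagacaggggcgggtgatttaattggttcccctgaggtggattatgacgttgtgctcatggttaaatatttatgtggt
Gata3, chr2:9878601-9878850 (-): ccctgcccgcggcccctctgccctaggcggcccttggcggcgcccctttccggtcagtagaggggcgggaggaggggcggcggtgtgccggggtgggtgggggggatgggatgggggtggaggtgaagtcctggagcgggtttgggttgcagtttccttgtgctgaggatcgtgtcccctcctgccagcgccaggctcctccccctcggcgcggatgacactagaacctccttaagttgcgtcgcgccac
Areg, chr5:91139349-91139598 (+): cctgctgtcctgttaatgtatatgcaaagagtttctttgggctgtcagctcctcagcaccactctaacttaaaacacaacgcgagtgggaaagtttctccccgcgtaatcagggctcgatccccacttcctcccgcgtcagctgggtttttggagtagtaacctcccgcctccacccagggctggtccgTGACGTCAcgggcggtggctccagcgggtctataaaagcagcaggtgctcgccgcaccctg

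The window before the distal *Il1rl1* start held 5 GATA matches, which began at -217, -141, -110, -80 and -54, where -1 is the base next to the start. At least 1 match was present before 26.5% of 32851 mouse starts, and 5 or more before 14 of them, or 0.0426%. The cutoff of 5 was taken from this *Il1rl1* window itself, so the share is only a description. The motif is rich in A and T, and 37.6% of the window was G or C. The proximal start, 10059 bases downstream, had 1 match at -103. The *Areg* window held 1 CRE at -61, a motif found before 1.55% of starts, and no GATA match. The window of *Gata3*, of which 70.0% was G or C, and those of *Pparg* (3 starts) and *Kit* (2 starts) held neither motif. The *Gata3* start used, at base 9878600 on the minus strand, lies inside the annotated gene, which reaches 9890034. The bases before that upstream end were not examined. A match is only a string of letters, and no binding was measured in the libraries used here.

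*Il1rl1* (ENSMUSG00000026069, chr1:40429570-40465415 on GRCm38) was lower in KO LI Treg cells. Its FPKM was 406.45 and 487.69 in control 1 and 2, and 233.13 and 233.85 in KO 1 and 2. Both KO pools lay below both control pools, and the lowest control was 1.74 times the highest KO value. The means were 447 ± 57.4 (SD, n = 2) and 233 ± 0.509, so KO stood at 52.2% of control, a log2 fold change (KO over control, on log2(FPKM + 1)) of -0.93 with SE 0.12. The value is per gene, so the membrane-bound receptor and its soluble decoy form cannot be told apart, nor can transcripts of the distal and proximal starts. In bulk libraries, fewer cells of a type and less RNA per cell cannot be told apart either.

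*Gata3* (ENSMUSG00000015619, chr2:9857078-9890034), the most evenly measured of the 7 genes in control, differed less. Its FPKM was 563.13 and 575.77 in control 1 and 2 and 450.15 and 445.77 in KO 1 and 2. The pools of each group were close together and the groups did not overlap, with means of 569 ± 8.94 and 448 ± 3.10 (SD, n = 2), or 78.7% of control (log2 fold change -0.35, SE 0.10). In place among all genes tested, counted from the lowest log2 fold change, *Gata3* was 807 and *Il1rl1* 58. The ratio of *Il1rl1* to *Gata3* FPKM was 0.722 and 0.847 in control and 0.518 and 0.525 in KO, so the receptor was lower relative to its transcription factor in both KO pools. Of the annotated genes that overlap *Gata3*, the highest, *9230102O04Rik* on the same strand, reached 9.90.

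*Pparg* (ENSMUSG00000000440, chr6:115360951-115490399), the nuclear receptor that drives lipid uptake and storage and is required for Treg cells of visceral fat, showed no separation. Its FPKM was 5.83 and 4.19 in control and 3.94 and 5.80 in KO. The groups overlapped, with means of 5.01 ± 1.16 and 4.87 ± 1.32 (SD, n = 2) and a log2 fold change of -0.04 (SE 0.27). With 1 library left out, the value ran from -0.27 to 0.19, so even its direction depended on the pool. *Pparg* was also the lowest of the 7 genes, at percentile 3.03 of the genes tested.

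*Areg* (ENSMUSG00000029378, chr5:91139599-91148432) encodes amphiregulin, an EGF-family ligand that promotes epithelial repair. Control 1 had an FPKM of 49.02, control 2 of 62.59, KO 1 of 38.42 and KO 2 of 39.89. The KO pools were alike and below both control pools, of which control 2 was 1.28 times control 1. KO was at 70.2% of control (55.8 ± 9.60 against 39.2 ± 1.04, SD, n = 2; log2 fold change -0.49, SE 0.15), and without control 2 the log2 fold change was -0.32. Relative to *Il1rl1*, *Areg* was higher in KO: the ratio was 0.121 and 0.128 in control and 0.165 and 0.171 in KO.

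*Penk* (ENSMUSG00000045573, chr4:4133531-4138819) encodes proenkephalin, the precursor of enkephalin opioid peptides. It was the highest of the 7 genes in control, with 1068.05 and 1031.87, against 385.95 and 450.15 in KO 1 and 2. The control pools were nearly equal and each was far above either KO pool, and the lowest control was 2.29 times the highest KO. Means were 1050 ± 25.6 and 418 ± 45.4 (SD, n = 2), or 39.8% of control, and the log2 fold change of -1.33 (SE 0.12) placed it 20 from the lowest of all genes tested. The annotation of *A830012C17Rik* overlaps *Penk* on the other strand, at 2.16 or less.

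*Kit* (ENSMUSG00000005672, chr5:75574916-75656722), the receptor for stem cell factor and best known from mast cells, was at 16.51 and 18.83 in control and 12.15 and 11.39 in KO. The groups did not overlap (17.7 ± 1.64 against 11.8 ± 0.537, SD, n = 2; 66.6% of control; log2 fold change -0.55, SE 0.16). Of 10 mast cell markers, *Mcpt2*, *Mcpt4*, *Cma1* and *Tpsb2* were at 0 in all libraries, *Cpa3* was at most 1, and nearly all of the summed level (14.57 and 14.23 in control, 17.15 and 18.14 in KO) was *Hdc*, which was not lower in KO.

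*Dgat2* (ENSMUSG00000030747, chr7:99153658-99182719) encodes an acyltransferase of the last step of triglyceride synthesis. It was at 41.36 and 64.17 in the control pools and at 26.04 and 22.45 in the KO pools. Both KO pools were below both control pools, but the control pools differed by a ratio of 1.55, the widest of the 7 genes, where the median gene had 1.15. KO was at 45.9% of control (52.8 ± 16.1 against 24.2 ± 2.54, SD, n = 2), with a log2 fold change of -1.06 (SE 0.21) that ran from -1.37 without control 1 to -0.75 without control 2. Adipocyte markers summed to at most 0.82, with *Adipoq* at 0 in every library.

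**Figure D1:**
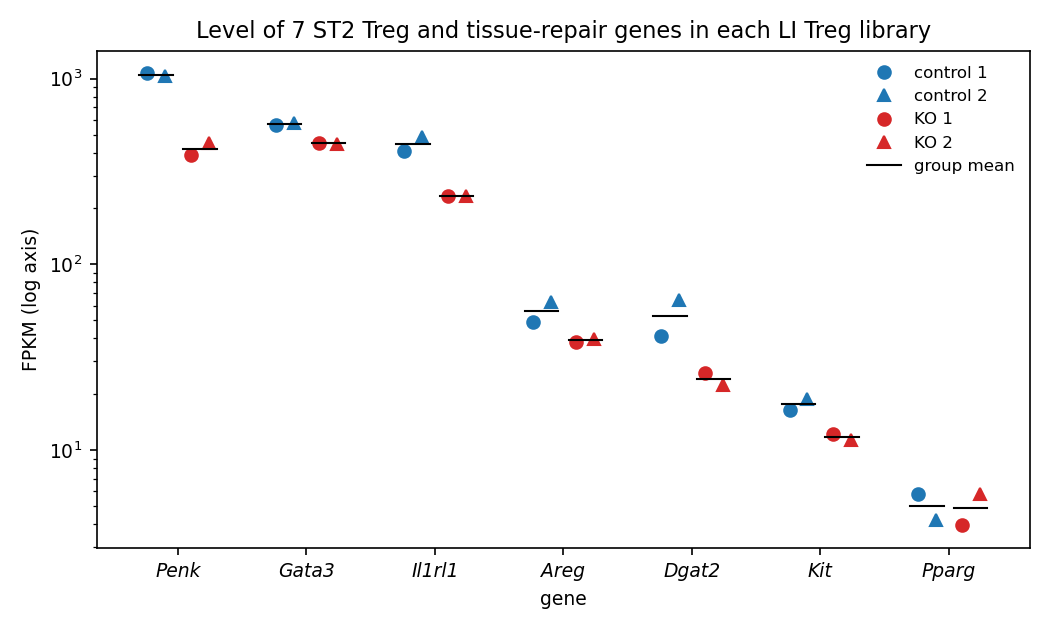
FPKM (log axis) of the 7 genes in each library, with control in blue, KO in red, circles for pool 1, triangles for pool 2 and lines for group means. The KO symbols lie below both control symbols for 6 genes, and for *Pparg* the groups overlap between 4.19 and 5.80.

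By level, *Penk* led *Gata3* and *Il1rl1* in both control pools. In KO, *Gata3* at 450.15 was above *Penk* at 385.95 in KO 1, and *Penk* at 450.15 was just above *Gata3* at 445.77 in KO 2, so these neighbours could not be ordered. *Areg* and *Dgat2* changed places between the control pools and were ordered in KO, with *Areg* higher. *Kit* and then *Pparg* followed in each library. The identical 450.15 in different libraries is 1 of the ranked values that the libraries share.

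Of the 7 genes, 6 had both KO pools below both control pools, as had 22.9% of all genes tested. At an adjusted p below 0.05 from limma, 2 of the 7 were lower, beside 0.275% of all genes (0.314% were higher); at an unadjusted p below 0.05, 6 were lower and 0 higher, beside 7.57% and 8.61% of all genes. Nothing is read from these counts, since this contrast guided the choice. The median log2 fold change of the 7 genes was -0.55, and the 5th to 95th percentile of all genes tested ran from -0.49 to 0.50, so *Gata3*, *Areg* and *Pparg* lay within or at the edge of that range. Within groups, 5 genes were higher in control 2 than in control 1, all but *Penk* and *Pparg*.

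**Figure D2:**
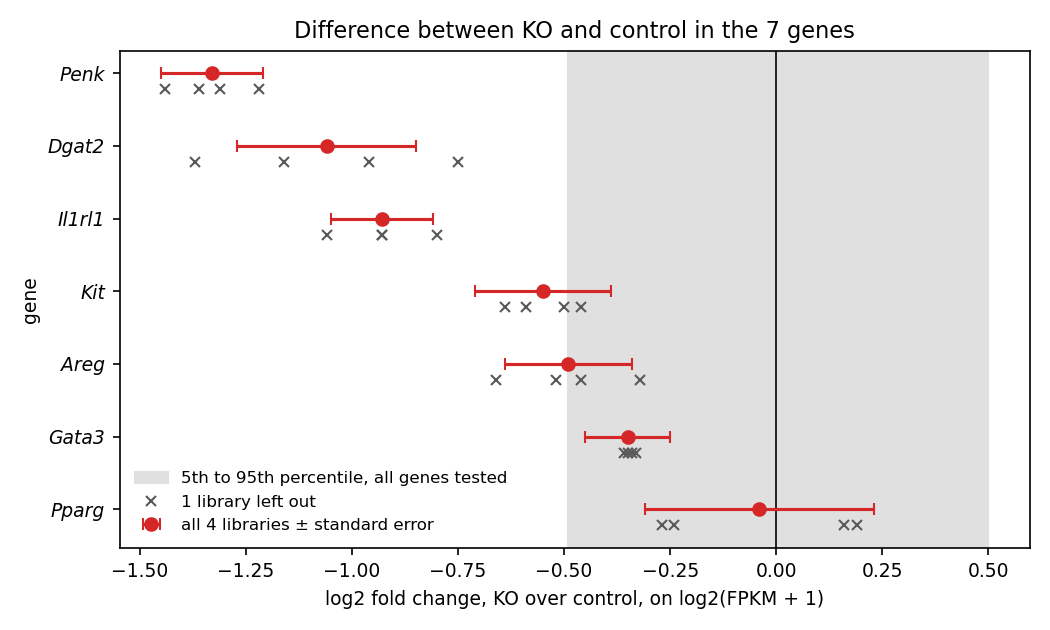
Log2 fold change (KO over control) of the 7 genes from all libraries with its standard error (red), and with 1 library left out (crosses), beside the 5th to 95th percentile of all genes tested (grey). *Penk*, *Dgat2* and *Il1rl1* lie left of the grey band in every setting shown, and the crosses of *Pparg* lie on both sides of 0.

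Other genes of the same pathways were then tested with limma, over 9 lists that leave out the 7 genes. Of 122 genes, 69 passed the filter. With limma, 0 passed an adjusted p of 0.05. At an unadjusted p below 0.05, which is what lower and higher mean in the counts of the lists below, 11 were lower in KO and 6 higher, which are 15.9% and 8.70% of those tested, beside 7.57% and 8.61% of all genes. The share of higher genes was thus near that of all genes. The lists were chosen with earlier results of these data known, so nothing is read from the larger share of lower genes. The 11 lower genes also include *Pcsk1*, which passed the filter only through its control mean. The median log2 fold change of the 69 genes was -0.04 and that of all genes tested -0.004.

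Of the IL-33 and ST2 signalling genes, 9 of 12 were tested, with 0 lower and 2 higher, and a median of -0.03. *Sigirr*, an inhibitory receptor of the IL-1 receptor family, was at 30.96 and 33.08 in control and 42.36 and 40.35 in KO (log2 fold change 0.36, SE 0.13, limma adjusted p = 0.238). *Irak2*, a kinase downstream of MyD88, had 23.13 and 37.89 against 54.86 and 38.12 (0.61, SE 0.26, limma adjusted p = 0.303), with the nearest pools almost equal. The ligand gene *Il33*, named after its values were seen, was at most 0.18, and the co-receptor gene *Il1rap*, also so named, was at 8.55, 7.77, 8.71 and 12.20 in the order control 1, control 2, KO 1 and KO 2 (log2 fold change 0.31, SE 0.21, limma adjusted p = 0.525).

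Among GATA3 partners and type 2 transcription factors, 13 of 16 were tested, with 3 lower, 0 higher and a median of -0.17. *Id2*, an inhibitor of E proteins that supports effector Treg cells, was at 1376.13 and 1355.07 in control and 847.00 and 881.01 in KO, a gap far wider than that between pools (log2 fold change -0.66, SE 0.10, limma adjusted p = 0.0511). *Rora*, a nuclear receptor gene active in tissue Treg cells and innate lymphoid cells, was at 843.69 and 834.37 against 589.31 and 563.13 (-0.54, SE 0.10, limma adjusted p = 0.0741). The other was *Stat5a*, named after its values were seen, which transduces IL-2 signals (-0.45, SE 0.14, limma adjusted p = 0.203). None met the adjusted threshold.

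Of 13 type 2 cytokine and receptor genes, 9 were tested, with 1 lower, 0 higher and a median of -0.24. The chemokine receptor gene *Ccr8* had means of 877 ± 95.4 and 659 ± 28.8 (SD, n = 2), with a log2 fold change of -0.41 (SE 0.12, limma adjusted p = 0.177), and *Ccr3* was at 11.24 and 11.62 against 6.69 and 10.02 (-0.43, SE 0.22, limma adjusted p = 0.388). The list of other ST2 and tissue Treg genes had all 10 tested, with 5 lower, 1 higher and a median of -0.27. *Tnfrsf9*, a costimulatory receptor gene of activated Treg cells, was at 2459.97 and 3120.54 in control and 1547.86 and 1719.76 in KO (-0.76, SE 0.14, limma adjusted p = 0.0741, or 0.0454 in a fit blocked on replicate number). *Lgals1*, which encodes galectin-1, went the other way, with 356.01 and 408.73 against 531.99 and 589.31 (0.55, SE 0.12, limma adjusted p = 0.0945). The remaining lower genes were *Itgae* (-0.56), *Nt5e* (-0.38), *Klrg1* (-0.38) and *Ikzf2* (-0.37), which were named after their values were seen and had limma adjusted p-values from 0.168 to 0.222.

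Around *Areg*, 3 of 12 EGF-family ligand, sheddase and receptor genes were tested, with 0 lower, 0 higher and a median of 0.05. The sheddase genes *Adam17* (25.3 against 26.8, log2 fold change 0.08, limma adjusted p = 0.823) and *Adam10* (31.2 against 32.3, 0.05, adjusted p = 0.912), whose products release membrane-bound ligands, had similar means. The receptor gene *Egfr*, named after its values were seen, was at most 0.22.

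Around *Penk*, 3 of 12 opioid peptide, processing and receptor genes were tested, with 1 lower, 1 higher and a median of -0.18. *Pcsk1*, a prohormone convertase that cleaves proenkephalin, was at 4.67 and 5.37 in control and 2.40 and 2.85 in KO (-0.73, SE 0.25, limma adjusted p = 0.222). It passed the filter only through control, the group where it is high, so its count as lower supports nothing. *Cpe*, the carboxypeptidase that trims the cleaved peptides, was at 13.09 and 8.74 against 17.30 and 14.68 (0.53, SE 0.22, limma adjusted p = 0.292). Both are low in level beside *Penk*. The 4 opioid receptor genes of the list were at most 0.16.

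Around *Pparg*, 5 of 17 genes were tested, with 0 lower, 0 higher and a median of 0.17. The 2 smallest p-values were those of the coactivator subunit gene *Med1* (0.22, limma adjusted p = 0.409) and the fatty acid transporter gene *Cd36* (0.54, adjusted p = 0.451), which passed the filter only through its KO mean. Around *Kit*, 6 of 12 were tested, with 0 lower, 0 higher and a median of 0.02. The kinase gene *Lyn* (31.6 against 35.7, 0.17, limma adjusted p = 0.570) and the phosphatase gene *Ptpn6* (18.3 against 20.2, 0.14, adjusted p = 0.717) had the smallest p-values.

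Of 18 genes of triglyceride synthesis and lipid droplets, 11 were tested, with 1 lower, 2 higher and a median of -0.09. *Gpat4*, an acyltransferase of the first step of the same pathway as *Dgat2*, was at 37.85 and 38.15 in control and 23.60 and 21.23 in KO (-0.74, SE 0.14, limma adjusted p = 0.0719). *Gpat3*, which encodes an enzyme of that same step, had 8.83 and 4.99 against 11.06 and 11.90 (0.70, SE 0.26, limma adjusted p = 0.253). The other higher gene was *Hilpda*, an inhibitor of triglyceride breakdown (0.26, limma adjusted p = 0.303), and *Dgat1*, the other enzyme of the last step, had means of 1410 and 1240 (-0.19, limma adjusted p = 0.492); both were named after their values were seen.

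**Figure D3:**
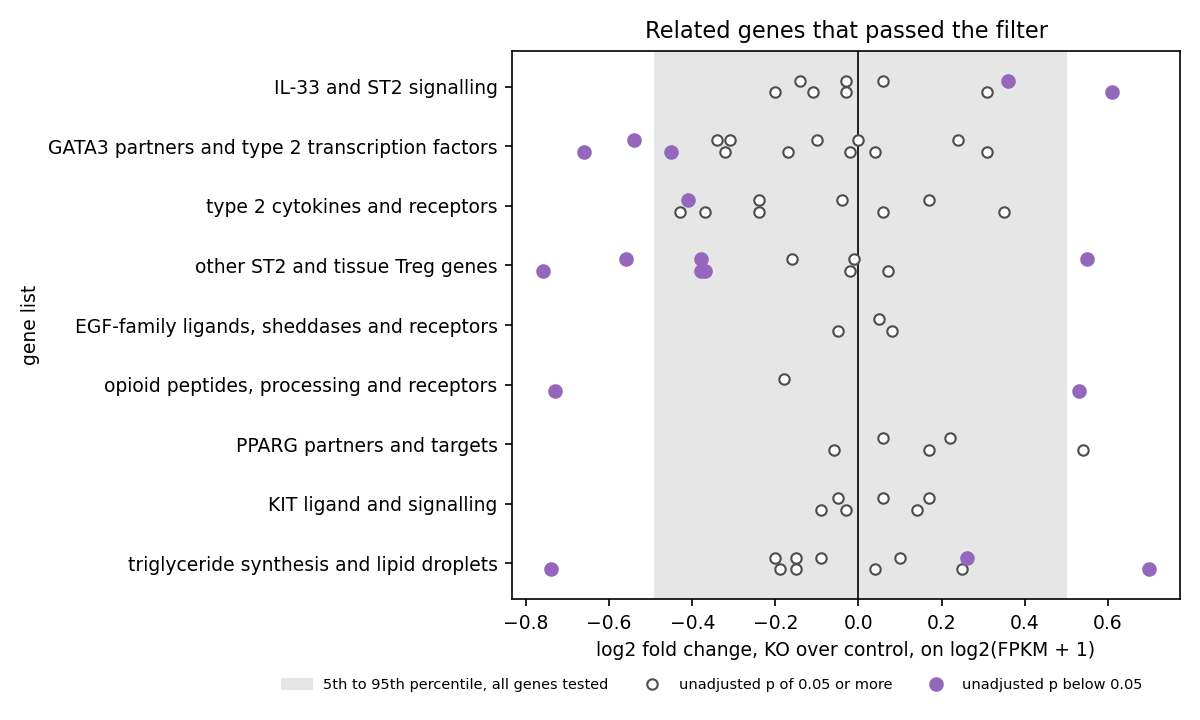
Log2 fold change (KO over control) of the 69 tested genes of 9 related lists, 1 circle per gene, with filled circles for an unadjusted limma p below 0.05 and the 5th to 95th percentile of all genes in grey. Filled circles lie left of 0 for 11 genes and right of it for 6, and 5 of the left ones belong to the ST2 and tissue Treg list.

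Markers of other cells were read beside these values. Of 6 ILC2 markers, *Nmur1*, the neuromedin U receptor gene, was at 6.95 and 7.52 in control and 17.34 and 17.08 in KO. It was named after its values were seen (log2 fold change 1.15, SE 0.17, limma adjusted p = 0.0454, or 0.0938 in a fit blocked on replicate number). *Arg1* was also higher in KO (1.37 and 1.11 against 2.87 and 1.71), but *Hs3st1* was lower (5.44 and 4.46 against 1.80 and 4.44). *Il5*, *Il13* and *Il17rb* overlapped between the groups. The summed level, which includes *Nmur1*, was 33.63 and 34.97 in control and 36.39 and 48.28 in KO. ILC2 also use *Il1rl1*, *Gata3* and *Areg*, and how much of the FPKM of these genes came from ILC2 was not tested. Macrophage markers (8 genes, mainly *Lyz2*) summed to 247.0 to 308.2 and B cell markers (4 genes, nearly all *Jchain*) to 114.7 to 172.2. Epithelial markers (9 genes) summed to 33.19 and 35.44 in control and 27.74 and 28.58 in KO. That sum was mainly *Epcam*, at 28.65 and 30.81 in control and 19.58 and 21.13 in KO. *Krt18* went the other way, with 4.23 and 4.52 against 7.22 and 7.18, and was named after its values were seen. Fibroblast markers reached at most 5.89 and CD8 T cell markers 2.96. The part of other cells in the results was not tested.

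The genes with the most similar pattern over the 4 libraries, by root mean square difference of log2 values centred on the gene mean, were found among the genes tested. For *Il1rl1* these were *Rasd1* (0.03), *Myc* (0.056) and *Egln3* (0.069). *Myc*, a growth regulator, was at 63.35 and 76.96 in control and 39.87 and 37.80 in KO. For *Gata3* they were *Zdhhc18* (0.007), *Bccip* (0.011) and *Hist1h2ag* (0.015), and for *Penk* *Tspan31* (0.031), *Gpr83* (0.068) and *Dffb* (0.087). Of the other 6 genes, the one nearest to *Il1rl1* was *Dgat2*, at place 47, followed by *Kit* (94), *Areg* (151), *Penk* (216), *Gata3* (516) and *Pparg* (4649). All these genes were picked for their likeness, so their values carry no test.

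**Figure D4:**
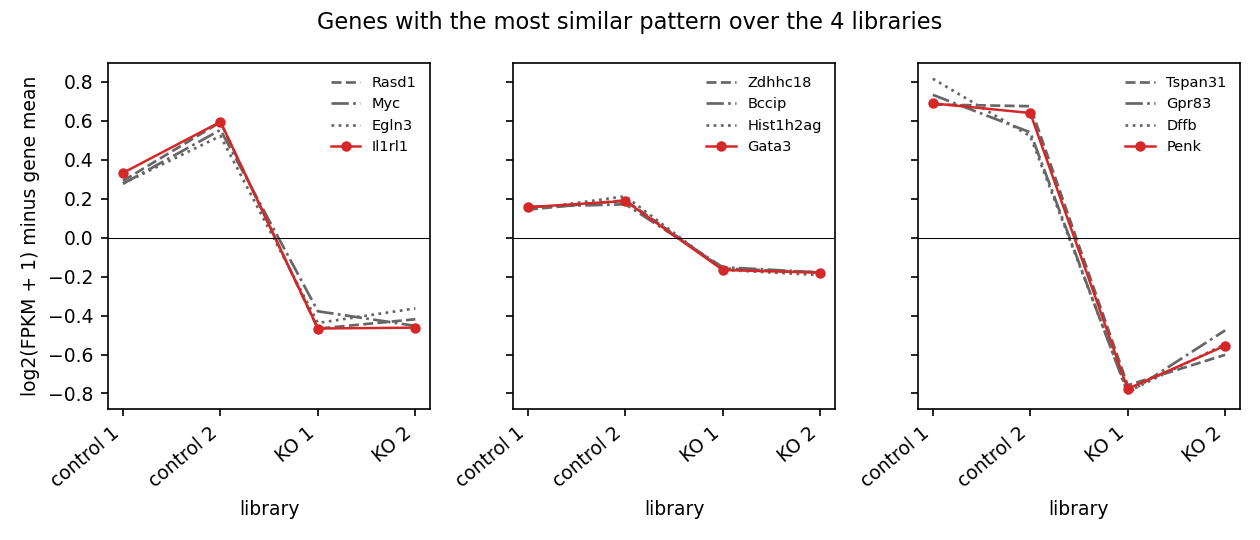
Log2(FPKM + 1) minus the gene mean in each library for *Il1rl1*, *Gata3* and *Penk* (red) and the 3 genes nearest to each (grey). *Il1rl1* runs from 0.60 in control 2 to -0.47 in KO 1, *Gata3* only from 0.19 to -0.18, and *Penk* from 0.69 in control 1 to -0.78 in KO 1.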

How the data were processed

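RNA-seq of LI Treg cells was used, with 2 control and 2 KO libraries. The authors mapped paired reads to GRCm38 with STAR 2.5 and quantified genes with RSEM 1.2, and deposited FPKM per gene. The values follow a common distribution over the libraries, a step that the methods do not name. They keep no depth, so no counting interval was computed, and a count test was not used.

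Gene types and positions came from GENCODE M21 on GRCm38, in which 53274 of the 53379 identifiers were found. Protein-coding genes whose mean FPKM exceeded 5 in control or KO were tested with limma 3.58.1 (R 4.3.3) on log2(FPKM + 1), two-sided, with an empirical Bayes trend, no covariate and Benjamini-Hochberg adjustment over 7639 genes. The fit was tested on simulated data. An exact permutation test of 2 against 2 libraries cannot go below 0.333. The added 1 understates the change of low genes. A difference is KO over control throughout.

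The 7 genes, the related lists, the markers and the tests were chosen with earlier results of these data known. Named were the 7 genes, in each list the genes with an adjusted p below 0.05 or else the 2 with the smallest p, the 3 genes most like *Il1rl1*, *Gata3* and *Penk*, and *Setd2*. Alternatives covered the pseudocount (0.1 and 5), the filter (a minimum mean of 1, or none), gene types (all), median-centring, the trend, a block for the replicate number and the removal of each library. Promoter sequences were RefSeq windows of GRCm38.p6. Tables were handled in Python 3.11.15 with pandas 2.3.3 and numpy 2.4.6, and figures drawn with matplotlib 3.10.9.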

Additional observations from a re-analysis of the deposited data

How the results depend on the processing

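The median log2 fold change of the 7 genes was -0.58 with a pseudocount of 0.1, -0.45 with 5 and -0.55 with median-centring. The filter, the gene types, the trend and the balanced replicate block cannot change the fold change of a gene, so they are no check of it. With 1 library left out, the median lay between -0.66 and -0.46. It was negative in each setting, but the genes were chosen with this contrast known, so nothing is read from its sign. The largest shift of a single gene with another pseudocount was that of *Kit*, -0.43 with a pseudocount of 5. Counts over all genes moved more. At an adjusted p below 0.05, the 24 higher and 21 lower genes became 8 and 3 with no filter, 5 and 8 with all gene types, 1 and 2 without a trend, and 11 lower with a mean FPKM of at least 1. At an unadjusted p, 1198 were higher with no filter, beside 658. The titles number the replicates but do not say whether same-numbered libraries were paired. The deviations of same-numbered libraries correlated at -0.305. With 2 libraries per group, crossed libraries then have the opposite sign, so this value cannot tell whether or how the libraries were paired. With a replicate block in the fit, 15 and 12 genes passed the adjusted threshold and 419 and 377 the unadjusted one, beside 578 lower without it. The block put *Tnfrsf9* past the adjusted threshold, and *Sigirr*, *Ikzf2* and *Hilpda* no longer passed the unadjusted one, which left 10 lower and 4 higher genes in the related lists. A crossed pairing, chosen after seeing the data, gave 240 and 225, and 1008 and 983. With 1 library left out, a lone sample was assumed to vary like the other group, and the counts ran from 1 to 36 higher and 1 to 30 lower (adjusted) and from 330 to 650 and 314 to 600 (unadjusted), and in the related lists from 2 to 5 higher and 7 to 14 lower. Without KO 1, 1 higher and 1 lower gene passed the adjusted threshold, and without KO 2, 1 and 2. The cause was not tested. Depth is not known, so its limit could not be given.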
